A study of Mus musculus with 10 samples.

Results

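S100 proteins and annexins are 2 families of mostly calcium-binding proteins that act at membranes and on the cytoskeleton. Their genes were taken by symbol from the count table of a study of activated muscle stem cells (MuSCs). The rule itself used no measured value, but it was set with earlier results of these data known. Of 24620 table entries, 28 met the rule, namely 15 S100 genes, 12 annexin genes and S100pbp. S100pbp encodes a binding partner of an S100 protein and no S100 protein itself, and it was kept apart from both families. A further S100 gene, S100a7a, was left out because its symbol did not match the rule, and it had at most 3 counts in any library.

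The study compared MuSCs from control mice (Trpm7 +/+) with MuSCs from Trpm7 cKO mice (Trpm7 flox/flox), and asked what the loss of the magnesium and calcium channel TRPM7 does to MuSCs during muscle regeneration. Mice of both groups were age-matched adults on a C57BL6 background, carried Pax7-CreERT2 and the Rosa26-YFP reporter, received tamoxifen (TMX) and were injured with cardiotoxin (CTX) 3 days before isolation. Cre is driven by Pax7 and switches the reporter on, so that a sorted YFP-positive cell is one in which Cre acted, and the sort does not select for removal of the floxed allele itself. Each of the 5 control and 5 Trpm7 cKO libraries was made from 3000 sorted cells by CEL-Seq2, which reads the 3′ end of a transcript and counts each molecule by a unique molecular identifier (UMI). Replicates 4 and 5 of Trpm7 cKO carry the same number in their labels, with no word on what it stands for, and nothing in the labels says that replicates of a group came from separate animals, so that p-values measure the spread between these libraries.

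Most, but not all, S100 proteins are dimers of small subunits that bind calcium through EF-hand loops and then dock onto target proteins. Annexins bind calcium and phospholipid together through repeats of their own kind. The families meet in complexes, since S100A10 binds annexin A2 and S100A11 binds annexin A1, and such complexes tether vesicles, the cortical cytoskeleton and the plasma membrane. In skeletal muscle, annexins gather at tears of the plasma membrane and take part in sealing them. Annexin A1 is also known as a substrate of the kinase domain of TRPM7. The transcripts counted here say nothing of calcium binding, of protein level or of the place of these proteins in the cell.

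Control libraries held between 914361 and 1097709 counts, and Trpm7 cKO libraries between 205986 and 581121, so that every Trpm7 cKO library was the shallower and depth cannot be told apart from genotype. Trpm7 itself had 66 to 84 counts in control and 10 to 55 counts in Trpm7 cKO libraries, with a log2 fold change of -0.09 (SE 0.20, adjusted p = 0.723, edgeR). Where the floxed part lies relative to the 3′ reads was not examined here, so that these counts were not taken as a check of the deletion, and genotypes come from the labels. Muscle stem cell markers such as Des, Vcam1 and Sdc4 were present in every library, and the sum over 15 such markers was 3624 to 4192 CPM in control and 2966 to 4536 CPM in Trpm7 cKO libraries. Of the 14 of them tested in edgeR, 8 were higher and 3 lower in Trpm7 cKO at an adjusted p below 0.05. The sum thus joins changes in both directions and does not show that the markers stayed the same. Markers of leukocytes were far higher in Trpm7 cKO libraries, and their levels are given beside the results. In bulk libraries of this kind, more cells of a type and more RNA per cell cannot be told apart.

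Positions are those of GRCm38. A cluster of 11 S100 genes spans 184688 bases of chromosome 3, from 90511034 to 90695721, in the order S100a1, S100a13, S100a14, S100a16, S100a3, S100a2, S100a4, S100a5, S100a6, S100a8 and S100a9. S100a11 and S100a10 lie further along the same chromosome, between 93520488 and 93564643, so that 13 of the 15 S100 genes are on chromosome 3. S100a1 (90511034 to 90514392, minus strand) and S100a13 (90514435 to 90524581, plus strand) point away from each other, and their starts are 43 bases apart in the GENCODE annotation. The stretch that separates them is shown because the counts of these neighbours behaved differently, and the sequences before S100a16 and Anxa5 are shown because both genes rose. All 3 are RefSeq sequences of GRCm38.p6, written 5′ to 3′ on the strand named and ending on the base before the start, with any E-box (CANNTG, a motif bound by MyoD and other basic helix-loop-helix factors) in capitals.
S100a1 to S100a13, chr3:90514393-90514434, plus strand: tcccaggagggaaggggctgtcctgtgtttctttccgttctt
S100a16, chr3:90537004-90537253, plus strand: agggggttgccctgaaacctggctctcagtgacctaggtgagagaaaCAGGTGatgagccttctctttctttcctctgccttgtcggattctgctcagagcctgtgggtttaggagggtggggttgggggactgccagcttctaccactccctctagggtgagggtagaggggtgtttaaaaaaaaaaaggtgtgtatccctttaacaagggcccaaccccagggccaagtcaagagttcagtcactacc
Anxa5, chr3:36475895-36476137, minus strand: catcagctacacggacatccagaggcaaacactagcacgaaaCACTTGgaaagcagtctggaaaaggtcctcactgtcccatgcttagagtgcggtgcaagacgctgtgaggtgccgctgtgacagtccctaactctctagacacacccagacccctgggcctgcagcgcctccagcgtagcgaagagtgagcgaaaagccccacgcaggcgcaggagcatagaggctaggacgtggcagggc

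The stretch between S100a1 and S100a13 held no E-box, and the sequences before S100a16 and Anxa5 held 1 each, 203 and 201 bases before the start. An AP-1 motif (TGANTCA) was in none of the 3. Over RefSeq windows of 300 bases around gene starts, in which both motifs were searched on both strands, 72.3% of 32851 windows held an E-box and 7.81% held the AP-1 motif. Of the tested members, 12 had such a window. An E-box was in a window of 8 of these 12, and the AP-1 motif in a window of 3, namely Anxa2, S100a11 and S100a16. S100a16 has a second RefSeq start at 90541146, and its AP-1 motif is in that window and not in the sequence shown above. These matches are letters in a window and were not read as sites.

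After edgeR's filter on low counts, 15 of the 28 members could be tested, 7 S100 genes, 7 annexins and S100pbp. The other 13, 8 S100 genes and 5 annexins, had at most 12 counts over all 10 libraries, whereas the least counted tested member had 204. Values below are normalized CPM, that is, CPM computed on library sizes scaled by edgeR's TMM method, and log2 fold changes are Trpm7 cKO against control. Because only 3′ ends are counted, CPM was not divided by transcript length. A gene was called when its adjusted p was below 0.05 and its log2 fold change was beyond 1.5 in either direction, the thresholds of the study's methods.

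In the S100 family, the transcripts of S100a13, S100a16 and S100a4 rose in Trpm7 cKO libraries, while those of S100a1, S100a6, S100a10 and S100a11 did not pass the test. S100a13 alone passed both thresholds, or 1 of 7 tested S100 genes, where 8.49% of all 7753 tested genes were called up. None of the 7 was called down in edgeR, against 3.53% of all tested genes, none had an unadjusted p below 0.05 in that direction, and DESeq2 also called 0. On the adjusted p alone, 3 of 7 were higher and 0 lower, beside 24.6% and 24.1% of all tested genes. With so few genes tested, these counts were not read as a result about the family. The same 3 were those whose libraries did not overlap between the genotypes, as for 34.5% of all tested genes. The median log2 fold change of the tested S100 genes was -0.06, close to the -0.01 of all tested genes.

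S100a13 encodes a small S100 protein that takes part in the export of FGF1 and interleukin-1α, proteins that leave the cell without a signal peptide. Its normalized CPM was 24.9, 21.7, 15.01, 18.1 and 26.6 in control replicates 1 to 5, and 86.8, 71.8, 113, 71.2 and 110.4 in Trpm7 cKO replicates 1 to 5. Every Trpm7 cKO library was above every control library. The means of 21.3 ± 4.77 and 90.7 ± 20.3 CPM (SD, n = 5 each) differed by a log2 fold change of 2.03 (SE 0.21, 95% interval 1.58 to 2.47, adjusted p = 3.77e-07, edgeR's quasi-likelihood test, Benjamini-Hochberg adjusted), a 4.08-fold rise. Before any scaling, S100a13 had 25, 21, 14, 18 and 23 counts in control and 47, 39, 31, 43 and 20 counts in Trpm7 cKO libraries. The counts as deposited were thus higher in 4 of the 5 Trpm7 cKO libraries than in any control library, although the Trpm7 cKO libraries were the shallower ones.

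S100a1, the muscle S100 protein that binds the ryanodine receptor and the sarcoplasmic calcium pump, starts next to S100a13 on the other strand. It ranged from 30.98 to 39.8 CPM in control and from 21.9 to 49.7 CPM in Trpm7 cKO libraries, and the groups overlapped. Its log2 fold change was -0.06 (SE 0.21, 95% interval -0.51 to 0.38, adjusted p = 0.834, edgeR), an interval that lies below the one of S100a13. Within a library, where scaling plays no part, there were 0.6005 ± 0.143 counts of S100a13 for each count of S100a1 in control (SD, n = 5, range 0.424 to 0.767), and 2.83 ± 1.34 in Trpm7 cKO libraries (SD, n = 5, range 1.95 to 5.17). This ratio did not overlap between the genotypes.

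S100a16, a widely expressed S100 gene and the fourth of the cluster (chromosome 3, 90537254 to 90543151, plus strand), rose by a smaller factor. Its level was 84.5, 104, 84.7, 92.4 and 117 CPM in control replicates 1 to 5 and 242, 225, 259, 174 and 237 CPM in Trpm7 cKO replicates 1 to 5. No library of one genotype reached the range of the other. The log2 fold change was 1.22 (SE 0.15, 95% interval 0.90 to 1.54, adjusted p = 2.48e-06, edgeR), or 2.34-fold, short of the fold threshold.

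S100a4, also named metastasin, binds non-muscle myosin IIA and is a common marker of motile mesenchymal cells and macrophages. It stood at 1160, 1025, 938, 1053 and 954 CPM in control replicates 1 to 5, and at 1513, 1480, 1852, 1765 and 1402 CPM in Trpm7 cKO replicates 1 to 5. The lowest Trpm7 cKO library lay above the highest control library. Its log2 fold change was 0.64 (SE 0.13, 95% interval 0.36 to 0.92, adjusted p = 0.000517, edgeR), a 1.56-fold rise relative to the other genes. Counted per 3000 sorted cells, with no scaling for depth, the direction turned (log2 fold change -0.51, adjusted p = 0.204), a scale on which the median of all tested genes was -1.15. Of the last bases of its transcript, 60.6% are shared with the overlapping gene Gm42674 on the same strand, so that the counts of the pair could be split or lost.

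S100a6, or calcyclin, was the most abundant member in every library. It had 4652, 4397, 3842, 4085 and 4685 CPM in control replicates 1 to 5 and 2461, 3388, 3716, 4364 and 3703 CPM in Trpm7 cKO replicates 1 to 5. The groups overlapped, with Trpm7 cKO replicate 4 within the control range and replicate 1 the lowest of all. The log2 fold change was -0.30 (SE 0.16, 95% interval -0.63 to 0.03, adjusted p = 0.128, edgeR). Without Trpm7 cKO replicate 4 it was -0.41 with an adjusted p of 0.0182 in edgeR, and DESeq2 gave -0.38 with an adjusted p of 0.0221. With no filter on low counts, which moved the median of all tested genes to -0.20, it was -0.51 with an adjusted p of 0.00273 in edgeR. Counted per 3000 sorted cells, a scale on which that median was -1.15, S100a6 was at -1.46 with an adjusted p of 0.000411 in edgeR. An adjusted p below 0.05 thus depended on Trpm7 cKO replicate 4, the tool, the filter and the scaling. S100a6 passed both thresholds in no setting.

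S100a10, the light chain partner of annexin A2 and a cell surface binder of plasminogen, was at 1241, 1116, 1099, 1087 and 960 CPM in control and at 1136, 1099, 1001, 1125 and 762 CPM in Trpm7 cKO replicates 1 to 5. Replicate 5 was the lowest library of either genotype, and the groups overlapped. The log2 fold change of S100a10 was -0.10 (SE 0.14, 95% interval -0.39 to 0.19, adjusted p = 0.596, edgeR).

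S100a11, the partner of annexin A1, was at 643, 458, 618, 674 and 387 CPM in control and at 649, 710, 406, 585 and 221 CPM in Trpm7 cKO replicates 1 to 5. It varied more than its neighbours within both genotypes, and the fold change of -0.08 on the log2 scale (SE 0.24, 95% interval -0.60 to 0.43, adjusted p = 0.802, edgeR) left room for a change in either direction. Pseudogenes share 59% of the last bases of its transcript, so that its counts are uncertain. For S100pbp, which was low in all libraries at 19.9 to 40.8 CPM, the log2 fold change was -0.30 (SE 0.27, adjusted p = 0.365, edgeR).

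**Figure D1:**
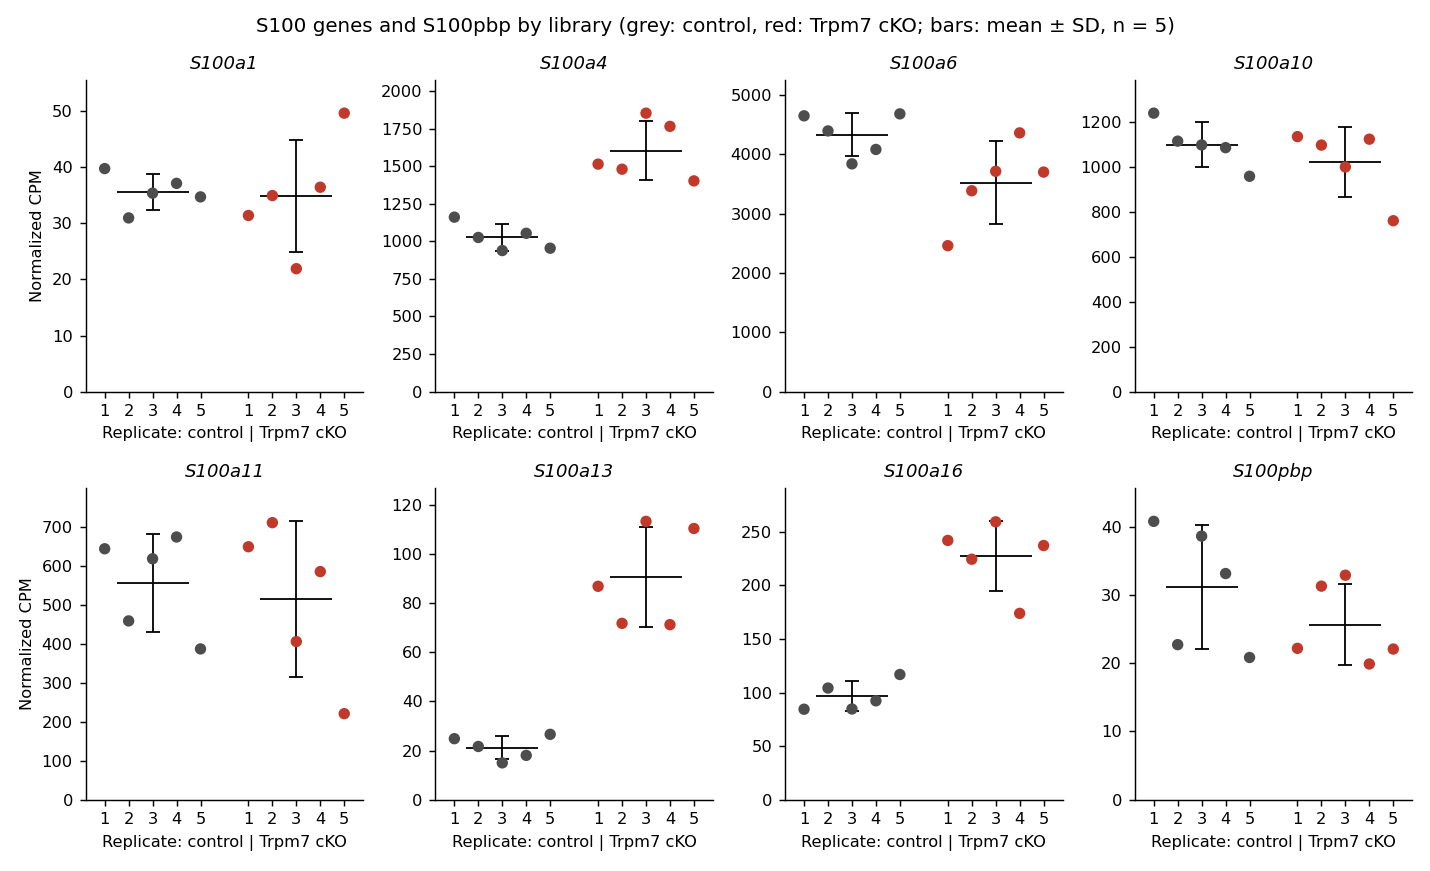
Normalized CPM (y axes, linear, from 0) of the tested S100 genes and S100pbp in each library (x axes, replicates 1 to 5 of control in grey and of Trpm7 cKO in red), with lines and bars for mean ± SD (n = 5). S100a13, S100a16 and S100a4 show every red point above every grey point, S100a6 spans 2461 to 4364 CPM in Trpm7 cKO against 3842 to 4685 CPM in control, and the other genes overlap.

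Summed over the 15 S100 genes, the family held 7172 ± 438 CPM in control (SD, n = 5, range 6632 to 7851) and 7044 ± 771 CPM in Trpm7 cKO libraries (SD, n = 5, range 6148 to 8134), a log2 ratio of -0.03. The total thus stayed within the replicate spread while its make-up moved. S100a6 gave 60.4% ± 3.13 of the S100 counts in control and 49.8% ± 6.34 in Trpm7 cKO libraries (SD, n = 5 each), and the highest share in Trpm7 cKO, 56.7%, was below the lowest in control, 57.9%. S100a4 went from 14.3% ± 0.640 to 22.8% ± 1.89 (SD, n = 5 each). S100a16 took 1.35% and S100a13 0.295% of the family in control, and 3.28% and 1.31% in Trpm7 cKO libraries. Shares within a family sum to the whole, so that a rise of one member lowers the others, and no p was computed for them.

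In the annexin family, Anxa3 and Anxa5 rose and Anxa1 fell in Trpm7 cKO libraries, and Anxa2, Anxa4, Anxa6 and Anxa7 did not pass the test. Anxa3 was the only 1 of 7 tested annexins past both thresholds under this fit, beside the 8.49% of all genes called up. Anxa5, with a log2 fold change just under 1.5, was past both in 10 of the 19 other settings that were planned and kept both thresholds. No annexin was called down by edgeR or DESeq2 with both thresholds, while 1 of 7, Anxa1, was lower at an unadjusted p below 0.05 and on the adjusted p alone, as were 24.1% of all tested genes. On the adjusted p alone 2 of 7 were higher, beside 24.6% of all genes. The median of the 7 log2 fold changes was 0.02.

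Anxa5 encodes annexin A5, which binds exposed phosphatidylserine and forms lattices on damaged membrane (chromosome 3, 36448923 to 36475894, minus strand). Its normalized CPM was 93.5, 85.7, 107, 102 and 113 in control replicates 1 to 5, and 338, 296, 318, 249 and 204 in Trpm7 cKO replicates 1 to 5. All Trpm7 cKO libraries were above all control libraries. The means were 100.5 ± 11.01 and 281 ± 54.3 CPM (SD, n = 5 each), with a log2 fold change of 1.498 (SE 0.16, 95% interval 1.17 to 1.82, adjusted p = 3.02e-07, edgeR), or 2.82-fold.

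Anxa3, an annexin abundant in neutrophils (chromosome 5, 96793339 to 96845966, plus strand), had 47.7, 51.6, 30.03, 41.2 and 46.3 CPM in control replicates 1 to 5. Trpm7 cKO replicates 1 to 5 had 179, 127, 135, 123 and 121 CPM. The groups did not overlap, and replicate 1 was the highest. The log2 fold change was 1.67 (SE 0.18, 95% interval 1.30 to 2.04, adjusted p = 4.21e-07, edgeR), or 3.18-fold. The counts as deposited were 48, 50, 28, 41 and 40 in control and 97, 69, 37, 74 and 22 in Trpm7 cKO libraries.

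Anxa1, the annexin that dampens inflammation through formyl peptide receptors (chromosome 19, 20373428 to 20390944, minus strand), fell. Control replicates 1 to 5 had 712, 619, 631, 761 and 571 CPM, and Trpm7 cKO replicates 1 to 5 had 386, 302, 267, 444 and 215 CPM. The highest Trpm7 cKO library was below the lowest control library. The means were 659 ± 76.5 and 323 ± 92.0 CPM (SD, n = 5 each), and the log2 fold change was -0.999 (SE 0.17, 95% interval -1.35 to -0.65, adjusted p = 6.56e-05, edgeR). The 3′ end of Anxa1 is overlapped on the other strand by 1500015L24Rik, and the strand setting of the counting is not given in the sources used here.

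Anxa2, which bridges membranes with S100A10, was the most abundant annexin. It had 1234, 1316, 1098, 1217 and 1217 CPM in control and 974, 1128, 1323, 1533 and 1192 CPM in Trpm7 cKO replicates 1 to 5. Its groups overlapped and its log2 fold change was 0.02 (SE 0.14, 95% interval -0.28 to 0.31, adjusted p = 0.938, edgeR).

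Anxa4, which self-associates on membranes, was at 145, 128, 147, 168 and 131 CPM in control and at 140.4, 107, 102, 149 and 110.4 CPM in Trpm7 cKO replicates 1 to 5 (log2 fold change -0.21, SE 0.15, 95% interval -0.53 to 0.11, adjusted p = 0.263, edgeR). Anxa6, the large annexin with doubled repeats that forms the repair cap at muscle lesions, was at 270.5, 286, 301, 355 and 252.4 CPM in control and at 273, 315, 219, 217 and 215 CPM in Trpm7 cKO replicates 1 to 5 (log2 fold change -0.23, SE 0.15, 95% interval -0.54 to 0.08, adjusted p = 0.221, edgeR). Anxa7, or synexin, was at 132, 160.1, 156, 155 and 174 CPM in control and at 183, 197, 248, 167 and 127 CPM in Trpm7 cKO replicates 1 to 5 (log2 fold change 0.26, SE 0.16, 95% interval -0.07 to 0.59, adjusted p = 0.185, edgeR). All 3 overlapped between the genotypes, and their intervals allowed changes of either sign. Gm44036 lies over the 3′ end of Anxa4 on the other strand, so that its counts carry the same doubt about strand as those of Anxa1. With no filter on low counts, which moved the median of all tested genes to -0.20, Anxa6 passed the test at -0.43 (adjusted p = 0.0379, edgeR).

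**Figure D2:**
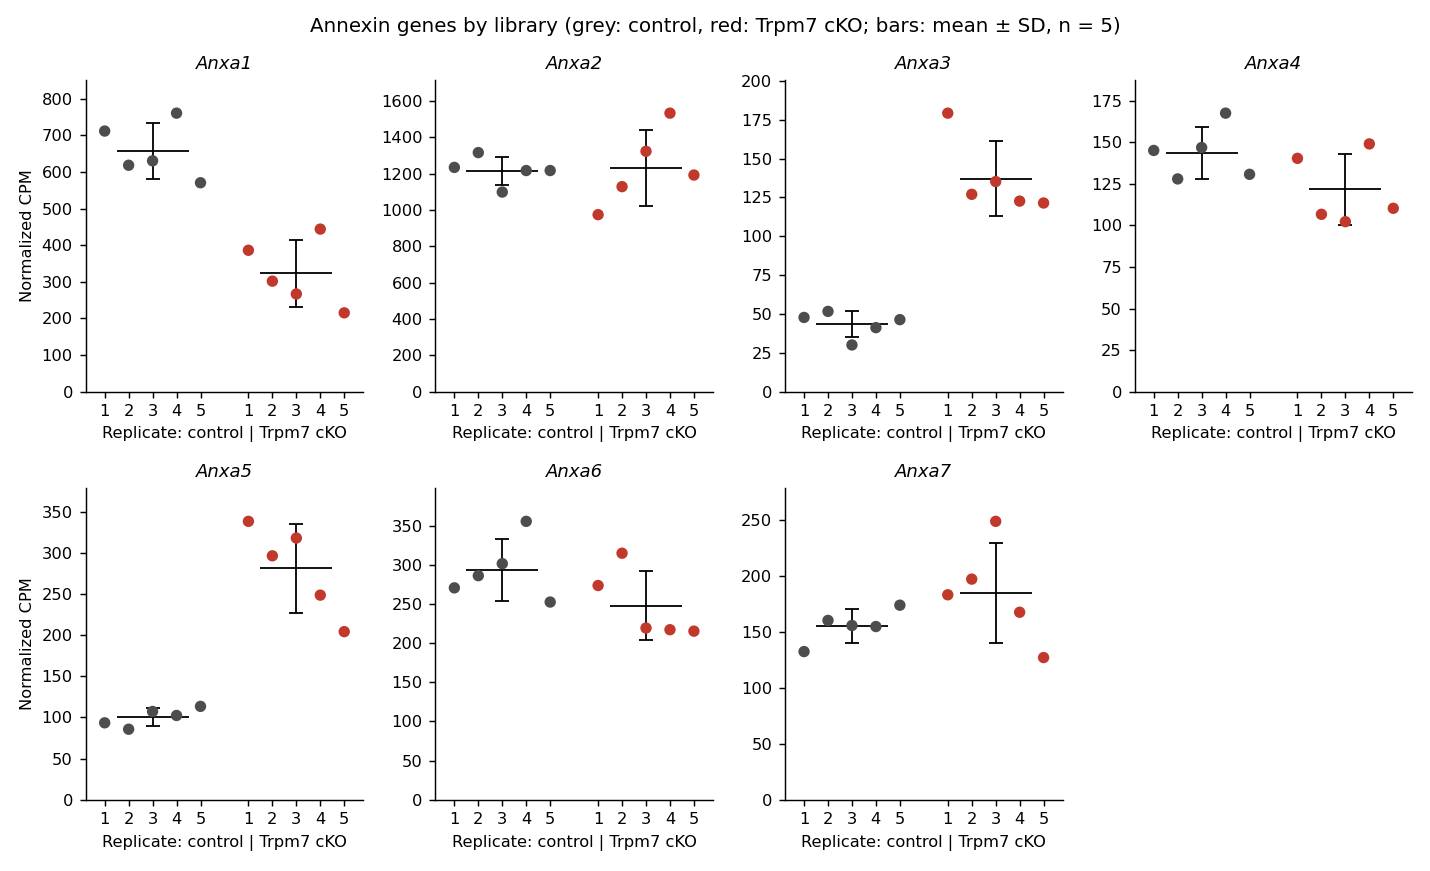
Normalized CPM (y axes, linear, from 0) of the 7 tested annexins in each library (x axes, replicates 1 to 5 of control in grey and of Trpm7 cKO in red), with mean ± SD (n = 5). Anxa3 and Anxa5 have all red points above, and Anxa1 all red points below, the grey points, and Anxa3 in Trpm7 cKO replicate 1 (179 CPM) stands above the other Trpm7 cKO libraries (121 to 135 CPM).

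The annexins together held 2613 ± 131 CPM in control and 2530 ± 255 CPM in Trpm7 cKO libraries (SD, n = 5 each), a log2 ratio of -0.05. The totals of the groups overlapped, as in the S100 family. Anxa1 gave 25.2% ± 2.03 of annexin counts in control and 12.6% ± 2.76 in Trpm7 cKO libraries, while Anxa5 went from 3.86% ± 0.549 to 11.1% ± 2.09 (SD, n = 5 each). Anxa3 went from 1.66% to 5.46%. Anxa2 remained close to 46.6% in control and 48.6% in Trpm7 cKO libraries.

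**Figure D3:**
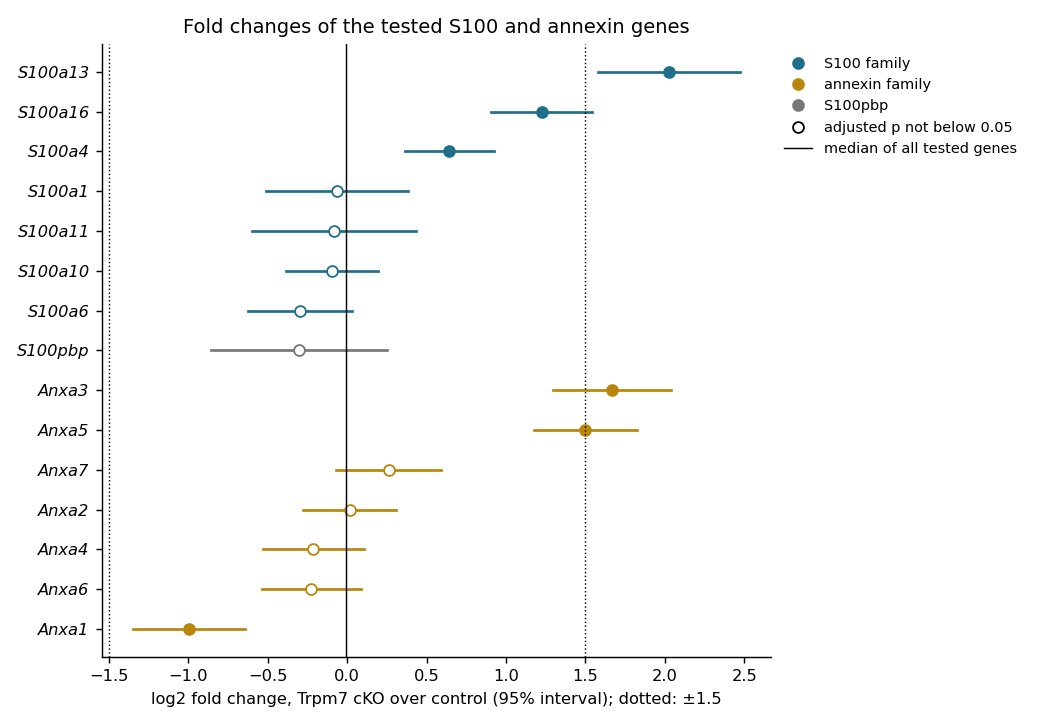
Log2 fold change of Trpm7 cKO against control for the 15 tested members (x axis; points with 95% intervals from edgeR's fit as bars, open where the adjusted p was not below 0.05; dotted lines at 1.5 in either direction). S100a13 (2.03), Anxa3 (1.67), Anxa5 (1.498), S100a16 (1.22) and S100a4 (0.64) lie above 0 and Anxa1 (-0.999) lies below 0 with intervals that leave out 0, and only S100a13 and Anxa3 pass the fold threshold of 1.5.

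Ratios of counts within a library do not depend on its scaling, and some of those given here set known partners side by side. S100a10 and its partner Anxa2 kept similar proportions, with 0.907 ± 0.0951 counts of S100a10 for each count of Anxa2 in control (SD, n = 5) and 0.854 ± 0.214 in Trpm7 cKO libraries (SD, n = 5), and the ranges overlapped. S100a11 and its partner Anxa1 did not, with a ratio of 0.837 ± 0.124 in control (SD, n = 5, 0.677 to 0.980) and 1.58 ± 0.497 in Trpm7 cKO libraries (SD, n = 5, 1.03 to 2.35). The ratio of Anxa5 to Anxa1 was 0.155 ± 0.0291 in control (SD, n = 5) and 0.912 ± 0.229 in Trpm7 cKO libraries (SD, n = 5). Anxa3 to Anxa4 went from 0.307 ± 0.0810 to 1.14 ± 0.198 (SD, n = 5 each). S100a6 to Cacybp, the calcyclin-binding protein, went from 8.55 ± 2.07 to 27.6 ± 15.4 (SD, n = 5 each). The last 3 ratios were without overlap between the genotypes. Each of them, like S100a11 to Anxa1 and S100a13 to S100a1, holds a gene that moved by itself. Their lack of overlap is thus no separate support. All of these ratios are descriptions, with no test.

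**Figure D4:**
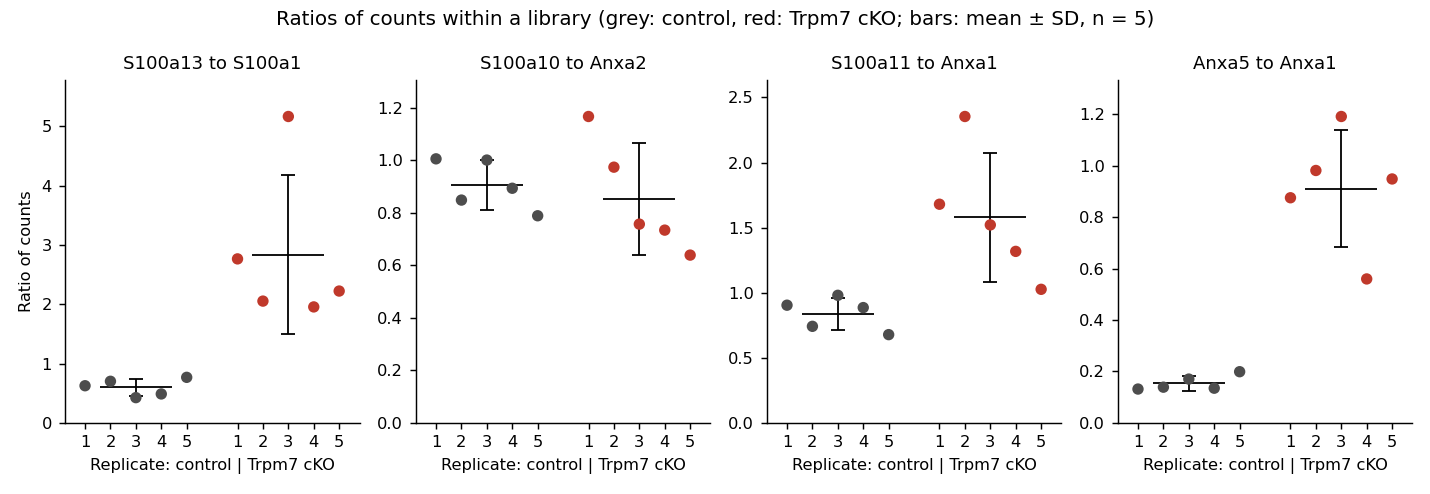
Ratio of the counts of 2 genes in each library (y axes, linear, from 0; x axes, replicates 1 to 5; grey, control; red, Trpm7 cKO), with mean ± SD (n = 5), for 4 pairs. The ratio of S100a10 to Anxa2 overlaps between the genotypes (0.789 to 1.01 in control, 0.639 to 1.17 in Trpm7 cKO), and those of S100a13 to S100a1, S100a11 to Anxa1 and Anxa5 to Anxa1 do not.

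The members that could not be tested had few counts in any library, of at most 6. S100b, a glial S100 gene, was at 0 counts in all 5 control libraries and at 4, 0, 0, 4 and 3 counts in Trpm7 cKO replicates 1 to 5. Its 3′ end is overlapped by Dip2a on the other strand, so that its counts carry the same doubt about strand as those of Anxa1. S100a8 and S100a9, the calprotectin pair of neutrophils and monocytes, had 1 and 2 counts over all control libraries and 10 and 10 counts over the Trpm7 cKO libraries. In exact permutation tests of their mean CPM (two-sided, smallest possible p 0.00794), run for the 5 untested members with a count in at least 5 libraries, S100a8 gave p = 0.0476 and S100a9 p = 0.0556, both 0.139 after Benjamini-Hochberg adjustment over the 5. S100a3 (p = 0.889, adjusted 0.889), Anxa8 (p = 0.206, adjusted 0.258) and Anxa9 (p = 0.167, adjusted 0.258, exact permutation test) also did not pass. DESeq2, which kept these genes, gave adjusted p-values of 0.0106 for S100a8, 0.0334 for S100a9 and 0.00928 for S100b. The others were S100a2, S100a5, S100a14, S100g, Anxa10, Anxa11 and Anxa13, with at most 6 counts in all, and their change was not detectable at this depth. Neutrophil markers were scarce as well. Of 16 listed, 10 were matched, Csf3r, Mmp9 and Hdc being the most abundant. Their sum was 5.79 to 13.9 CPM in control and 20.2 to 60.7 CPM in Trpm7 cKO libraries, with Camp at 0 throughout. Mmp9, at a mean of 7.34 CPM in control and 6.40 CPM in Trpm7 cKO libraries, did not share this rise. The sum over 6 markers of Schwann cells, the glia of peripheral nerve, led by Mbp and Prx, was 3.22 to 8.03 CPM in control and 44.3, 16.6, 32.9, 21.5 and 60.7 CPM in Trpm7 cKO replicates 1 to 5, higher in every Trpm7 cKO than in every control library. The part of these cells in the counts of S100a8, S100a9 and S100b was not tested.

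Among 18 listed genes for partners and receptors of S100 proteins and annexins, 11 were tested, and 3 were called up and 1 was called down. Over all tested genes, 8.49% were called up and 3.53% down. On the adjusted p alone, 6 of the 11 were higher and 3 lower, beside 24.6% and 24.1% of all tested genes, with a median log2 fold change of 0.48. Cd36, the scavenger receptor reported to bind the S100A8/S100A9 pair, rose by 3.87 on the log2 scale (adjusted p = 6.05e-05, edgeR), from 12.8 ± 7.87 to 201 ± 99.98 CPM (SD, n = 5 each). Plat, the plasminogen activator that annexin A2 and S100A10 hold at the cell surface, rose by 2.15 (adjusted p = 0.00396), and Dlc1, a GTPase-activating protein that S100A10 binds, rose by 1.56 (adjusted p = 8.62e-05). Cd36 and Plat were low in control (means of 12.8 and 13.3 CPM) and passed the filter on low counts through their Trpm7 cKO libraries. Their calls upwards were thus partly fixed by the filter, and the number called up is no separate support. Cacybp, which couples S100A6 to ubiquitin ligases, fell by 1.71, from 524 ± 93.7 to 152 ± 59.9 CPM (adjusted p = 2.40e-06, edgeR). Bsg, or basigin, an S100A9 receptor, had a log2 fold change of -0.74 (adjusted p = 0.00275), and Sugt1, a co-chaperone that S100A6 binds, one of -0.41 (adjusted p = 0.0208). Receptors such as Ager (5 counts in all) and Fpr1 (0 counts) were too low to test.

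Of 22 genes of plasma membrane repair, 16 were tested, 1 was called up and 1 down (8.49% and 3.53% of all tested genes), and on the adjusted p alone 2 were higher and 4 lower (24.6% and 24.1% of all tested genes), with a median log2 fold change of -0.20. These counts are near or below the shares over all genes and were not read as a result about the list. Ehd2, which shapes caveolae, rose by 1.82 (adjusted p = 5.02e-06, edgeR) and Cav1 by 0.38 (adjusted p = 0.0430). Myof, or myoferlin, a relative of dysferlin used in myoblast fusion and repair, had a log2 fold change of -1.58 (adjusted p = 8.05e-07, edgeR), from 266 ± 43.9 to 86.3 ± 22.3 CPM. Pef1 (-0.88, adjusted p = 0.0103) and Pdcd6 (-0.57, adjusted p = 0.0258), EF-hand partners of each other, were lower too. Of 30 other EF-hand genes, 26 were tested, 2 were called up and 0 down by edgeR (5 at an unadjusted p below 0.05 in that direction), with 5 higher, 5 lower and 16 not past the adjusted p alone, and a median of -0.07. These counts, too, are close to the 8.49% and 3.53% called and the 24.6% and 24.1% past the adjusted p alone among all tested genes. Lcp1, or L-plastin, an actin bundler of leukocytes, rose by 3.97 (adjusted p = 7.53e-05), Rcn3 of the secretory pathway by 2.00 (adjusted p = 9.75e-06) and Sparc, a matrix protein, by 0.92 (adjusted p = 3.63e-05). Ncs1 (-1.30, adjusted p = 0.000714), Sri (-0.77, adjusted p = 0.00228) and Stim2 (-0.65, adjusted p = 0.00235) were the lowest, all in edgeR's test.

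Leukocyte markers rose together. Of 28 listed, 24 were tested and all 24 were called up, beside 8.49% of all tested genes, with a median log2 fold change of 3.15, led in abundance by Lyz2, Ctss and C1qb. Summed over the list, they held 472 to 798 CPM in control libraries and 4388, 1706, 4538, 7632 and 7086 CPM in Trpm7 cKO replicates 1 to 5. Both tested endothelial markers of 12 listed were called up (median log2 fold change 3.74, sums of 6.43 to 68.3 CPM in control and 134 to 701 CPM in Trpm7 cKO, led by Cdh5, Pecam1 and Esam). Of 11 fibroadipogenic markers, 5 were tested and 4 called up (median 2.21, sums of 990 to 2048 CPM in control and 1589 to 3893 CPM in Trpm7 cKO, led by Col3a1, Col1a1 and Dpt). Markers low in control, such as Pecam1 (mean 5.29 CPM) and Cdh5 (mean 4.07 CPM), passed the filter on low counts through their Trpm7 cKO libraries. For such markers a call upwards was partly fixed by the filter, so that the share of tested markers called up is no separate support. Of the 14 tested muscle stem cell markers, 1 was called up and 2 down, and on the adjusted p alone 8 were higher and 3 lower (median 0.54), beside 8.49% and 3.53% of all tested genes called and 24.6% and 24.1% past the adjusted p alone.

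In a fit with the mean log2 level of leukocyte markers as a covariate, Anxa5 (log2 fold change 1.93, adjusted p = 0.00406) and Anxa3 (1.60, adjusted p = 0.0385) passed both thresholds. S100a13 (1.53, adjusted p = 0.0936), S100a16 (1.25, adjusted p = 0.0640), S100a4 (0.49, adjusted p = 0.476) and Anxa1 (-1.06, adjusted p = 0.209, edgeR) kept their directions and no longer passed. Leukocyte sums did not overlap between the genotypes, so that this fit separates the 2 terms poorly. Counted per 3000 sorted cells, with no scaling for depth, S100a13 (0.83, adjusted p = 0.0451) remained higher and Anxa1 (-2.07, adjusted p = 8.06e-07) lower, while Anxa3 (0.53, adjusted p = 0.196), Anxa5 (0.37, adjusted p = 0.362) and S100a16 (0.04, adjusted p = 0.920, edgeR) did not pass, on a scale whose median over all tested genes was -1.15.

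**Figure D5:**
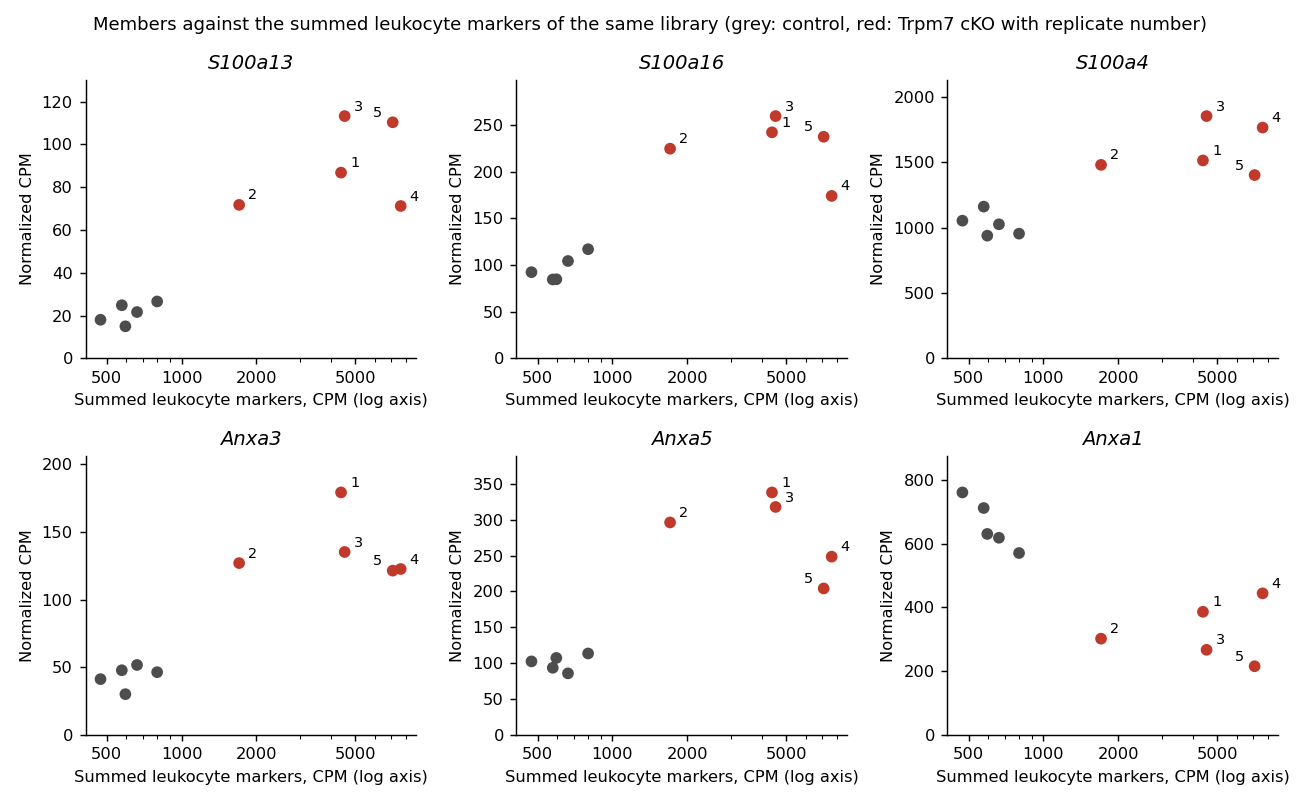
Normalized CPM of members that moved (y axes) against the summed normalized CPM of leukocyte markers (x axes, log scale) in each library, grey for control and red for Trpm7 cKO with the replicate number beside the point. Leukocyte sums are 472 to 798 CPM in control and 1706 to 7632 CPM in Trpm7 cKO libraries, so that the groups are apart on the x axes as well as on the y axes, whose members were picked for that separation.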

How the data were processed

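MuSC libraries of 5 control and 5 Trpm7 cKO samples were made by CEL-Seq2. The authors extracted UMIs with UMI-tools 1.1.4, trimmed reads with Trim Galore 0.6.10, aligned them to GRCm38 with HISAT2 2.2.1, assigned them to genes with featureCounts 2.0.6, and deposited UMI-deduplicated counts per gene without normalization. The annotation release and strand setting are not given in the sources used here. Groups came from the sample labels.

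Of 24608 symbols, 12 stood on a further line, and the entry with the larger total was kept. Genotypes were compared in edgeR 4.0.16 under R 4.3.3 (filterByExpr with a minimum count of 10 and minimum total of 15, TMM, robust quasi-likelihood fit, F test, genotype as the only term), with Benjamini-Hochberg adjustment over 7753 tested genes. The steps were tested on simulated counts. Positions and overlapping genes came from the GENCODE annotation of GRCm38, in which all 28 members were found, and promoter windows from RefSeq, which matched 22. Every member is named in the text. Of each pathway list, up to 3 of the highest and 3 of the lowest fold changes with an adjusted p below 0.05 are named, and of each marker list the 3 most abundant genes. A few genes are not reported here. Per-library values are given for called members and those with a mean of at least 100 CPM in either group. Totals of 205986 to 1097709 counts per library limit the precision of low members, and intervals cover the spread between libraries only. The members and lists were chosen with earlier results of these data known. Alternatives were DESeq2 1.42.0, other scalings, filters, thresholds and covariates, thinned counts, the replicate number as a block and each library left out. Counts per 3000 sorted cells and the sum of Trpm7 cKO replicates 4 and 5 were added after the data were seen.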

Additional observations from a re-analysis of the deposited data

Results flagged for a closer look

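Dixon's gap test at its 95% critical value of 0.71 for 5 libraries was applied to 34 groups of values, and 1 had a library apart from the rest, where chance gives about 1 in 20 groups. Anxa3 in Trpm7 cKO replicate 1 was at 179 normalized CPM, against 121 to 135 CPM in the other Trpm7 cKO libraries, a gap of 0.762 of the range of the group. Without that library, the log2 fold change of Anxa3 was 1.52, and it was 1.67 with it.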

How the results depend on the processing

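Under the 18 planned settings other than the leukocyte covariate and the call thresholds, S100a13, S100a16, S100a4, Anxa3, Anxa5 and Anxa1 kept their direction and an adjusted p below 0.05, with log2 fold changes of 1.82 to 2.13, 1.02 to 1.32, 0.43 to 0.74, 1.47 to 1.93, 1.29 to 1.69 and -1.20 to -0.82. Genes called up over all tested genes (658) numbered 1908 on the adjusted p alone, 1144 with a log2 fold change beyond 1, 1589 with DESeq2, 1813 with no filter, 375 with the leukocyte covariate, 294 after thinning and 203 per 3000 sorted cells. Genes called down (274) numbered 1866, 782, 440, 623, 128, 148 and 2461 in the same order. With 1 library left out, genes called down ranged from 244 to 416, the highest without Trpm7 cKO replicate 4. S100 genes called up (1) numbered 3 on the adjusted p alone, 2 beyond a log2 fold change of 1, 4 with DESeq2 and 4 with no filter, which add S100a8, S100a9 and S100b, and 0 with the leukocyte covariate and per 3000 sorted cells. Annexins called up (1) numbered 2 on the adjusted p alone, beyond a log2 fold change of 1, with RLE factors, library totals alone, the stricter filter, thinning, the leukocyte covariate and with Trpm7 cKO replicates 4 and 5 summed. They numbered 0 with no filter and per 3000 sorted cells, and 1 to 2 with 1 library left out (2 without Trpm7 cKO replicate 4 or 5 or control replicate 3, 4 or 5). Annexins called down (0) numbered 1, Anxa1, on the adjusted p alone and per 3000 sorted cells. Called genes of the pathway lists (8) numbered 25 on the adjusted p alone, 18 per 3000 sorted cells, 5 with the leukocyte covariate and 2 after thinning. The median log2 fold change of all tested genes was -0.20 with no filter and -1.15 per 3000 sorted cells, where the log2 ratios of the S100 and annexin sums were both -1.17.

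Directions turned only where the main fit had no adjusted p below 0.05, for the untested S100a3 or, per 3000 sorted cells, with that shift. Per 3000 sorted cells S100a4 was -0.51, Anxa2 -1.13 and Anxa7 -0.89. With the leukocyte covariate S100a10 was 0.20, S100a11 1.17, S100pbp 0.77, Anxa2 -0.44, Anxa6 0.63 and Trpm7 1.14. With library totals alone S100a1 was 0.0422, S100a11 0.0288 and Trpm7 0.0042, and with replicates 4 and 5 summed S100a11 was 0.0278 and Anxa2 -0.0084. Anxa2 was -0.0657 with DESeq2 and -0.20 with no filter. With 1 library left out, log2 fold changes ranged from -0.141 to 0.0243 for S100a1, -0.225 to 0.089 for S100a11, -0.104 to 0.0725 for Anxa2 and -0.296 to 0.0524 for Trpm7. The difference in mean CPM of S100a3 (Trpm7 cKO minus control) ran from -0.761 to 0.619, and was below 0 without control replicate 3 or Trpm7 cKO replicate 5. The cause of these changes was not tested. Correlations of same-numbered libraries ran from -0.12 to 0.18, and not every library matched best with its own number. Values this few and weak cannot decide whether same-numbered libraries were handled together, and the main fit did not pair them. With the replicate block 645 genes were called up and 294 down, S100a13 was at 2.06, and no member's call changed.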
